A study of Rattus norvegicus with 12 samples.

Results

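The miR-191 and miR-425 cluster was followed in small RNA from serum extracellular vesicles (EVs) of rats with an injured Achilles tendon. Its 3 members were taken by name from the count table, rno-miR-191a-5p, rno-miR-191b and rno-miR-425-5p (written without the rno prefix from here on), and all 3 were among the 426 miRs listed there. The other arms of the same hairpins, miR-191a-3p and miR-425-3p, were followed beside them. The cluster was chosen by the counts of these libraries, in which miR-191a-5p was the most abundant miR nearly throughout, so its abundance is given as a description and was not tested.

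The EVs came from 12 wild-type adult female Wistar rats, each with a needle puncture of the left Achilles tendon. Rapamycin, an inhibitor of the growth-regulating kinase mTOR, was injected daily into the peritoneum of the treated animals from the day after surgery, and the controls received the vehicle (polyethylene glycol and TWEEN 80 in water). Rapamycin had first been dissolved in DMSO, which the methods do not name as part of the vehicle. Serum was taken at day 7 or at day 21 after injury, which gave 3 animals in each of the 4 groups, rapamycin day 7, vehicle day 7, rapamycin day 21 and vehicle day 21. Injury and buprenorphine, given as analgesia, were common to all groups, and the 12 libraries include none from an uninjured rat. EVs were isolated by size exclusion alone, which can carry over other serum particles, and the study did not characterise them further. The sample labels give tendon as the tissue, whereas the series describes serum EVs. Among miRs known from red blood cells, miR-451-5p, miR-16-5p and miR-486 took a mean of 4.70%, 4.52% and 3.11% of the miR counts. These miRs were among the 10 most abundant.

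A miR is a short RNA that guides a silencing complex to messenger RNAs, and bases 2 to 8 of the miR, the seed, do most of the pairing. Both hairpins of the cluster are cut from one host transcript, that of Dalrd3, a gene for a partner protein of a tRNA methyltransferase, and each hairpin can give a 5p and a 3p miR. miR-191 and miR-425 are known as broadly expressed miRs of blood cells, and both are used as references when miRs are measured in serum or plasma.

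In the GRCr8 assembly, RefSeq places the miR-191 hairpin at chr8:118142627-118142717 and the miR-425 hairpin at chr8:118143084-118143166, both on the plus strand and separated by 366 bases. Both lie within the span of Dalrd3 (chr8:118142009-118147082, plus strand), whose exons were not analysed here. The hairpins are shown to place the arms that were counted, with the mature 5p and 3p miRs in capitals.
miR-191 hairpin: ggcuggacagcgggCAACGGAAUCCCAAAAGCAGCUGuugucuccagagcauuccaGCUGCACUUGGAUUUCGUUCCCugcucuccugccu
miR-425 hairpin: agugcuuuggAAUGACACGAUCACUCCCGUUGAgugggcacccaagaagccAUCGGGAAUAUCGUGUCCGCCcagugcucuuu

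The mature miRs follow 5′ to 3′, from RefSeq on GRCr8, with the seed in capitals, to show that the members carry different seeds although they share a locus.
miR-191a-5p: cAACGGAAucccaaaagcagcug
miR-425-5p: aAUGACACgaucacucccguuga
miR-191b: gAACGAAAuccaagugcagcu
miR-191a-3p: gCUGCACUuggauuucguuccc
miR-425-3p: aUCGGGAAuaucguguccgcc
No other rat miR of the RefSeq table had the seed of a member, so the members form no seed family. Despite its name, miR-191b is annotated on the minus strand of the same locus (chr8:118142682-118142702), in a hairpin of its own named Mir3555. Of its 21 bases, 20 lie opposite miR-191a-3p, and all 20 are complementary to it. Counted from the 5′ end, the opening 8 bases of miR-191a-5p and miR-191b differ by C1G and G6A, the latter inside the seed. Over alignments of at least 17 bases, each member had 6 or more mismatches to every other rat miR in the table, while the authors' counting allowed a single mismatch.

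Counts of miRs ran from 16327 to 95834 per library with a median of 30411.5. The study's table of reads by RNA class lists 10 of the 12 libraries, and the methods give no reason for the absence of rapamycin day 7 replicate 2 and vehicle day 7 replicate 1. These 2 libraries stood apart. Spike-in sequences took 24.3% and 13.6% of their counts against 52.5% to 71.8% in the 10 listed libraries, and they held 317 and 354 detected miRs against 189 to 263. The 5 red cell miRs fixed as markers (miR-451-5p, miR-144-3p, miR-144-5p, miR-486 and miR-16-5p) summed to 7.61% and 3.37% of their miR counts against 10.7% to 19.4%. The 6 muscle markers (miR-1-3p, miR-133a-3p, miR-133b-3p, miR-206-3p, miR-208b-3p and miR-499-5p) summed to 1.11% in the vehicle library, above the 0% to 0.198% of the listed libraries, and to 0.103% in the rapamycin library, within that range. The part of these differences in the results was not tested. Most comparisons are given with and without both libraries, and the others cover all 12 unless stated. A count of 3, taken as the limit of detection, stood at 31.3 to 184 CPM (counts scaled to a common library total), a limit that covers counting error only.

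miR-191a-5p was the most abundant miR in 11 of the 12 libraries. It took a mean of 13.5% ± 3.19 (SD, n = 12) of the miR counts, with a range of 7.39% to 18.9%, ahead of miR-21-5p at a mean of 7.18%. Rapamycin day 7 replicate 2 was the exception, with 3800 counts of miR-191a-5p and 4273 of miR-26a-5p, a growth-restraining miR. miR-425-5p held the rank of 22 to 45 in a library, with 0.465% to 0.917% of the miR counts. The other members of the locus were rarer. miR-425-3p took a mean of 0.122% of the miR counts and miR-191a-3p a mean of 0.0135%. The total over the 12 libraries was 56685 counts for miR-191a-5p, 2997 for miR-425-5p, 483 for miR-425-3p, 56 for miR-191a-3p and 13 for miR-191b.

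miR-191b was at or near the limit of detection. It had 6 counts in rapamycin day 21 replicate 1, 5 in vehicle day 7 replicate 3, and 1 each in vehicle day 21 replicate 1 and rapamycin day 21 replicate 3. The other 8 libraries held none, among them all 3 of rapamycin day 7, so no fold change is given for it. The arm on the opposite strand, miR-191a-3p, had 0 to 15 counts per library, with the 15 in vehicle day 7 replicate 3, and it too was too sparse to follow across groups.

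The level of miR-191a-5p, in CPM after TMM scaling over the 12 libraries, was higher with vehicle than with rapamycin in the group means of both timepoints. At day 7 it was 72321, 172840 and 169722 CPM in vehicle replicates 1 to 3 and 125367, 58582 and 122973 CPM in rapamycin replicates 1 to 3. The lowest value of each treatment was that of the library not listed in the read table. The groups overlapped through vehicle replicate 1 alone, since each rapamycin library lay below the other 2 vehicle libraries. At day 21 the vehicle replicates stood at 219253, 188461 and 151891 CPM and the rapamycin replicates at 118746, 135977 and 134553 CPM, so that each rapamycin library lay below each vehicle library. The group means were 186535 ± 33722 CPM for vehicle day 21, 138295 ± 57156 for vehicle day 7, 129759 ± 9564 for rapamycin day 21 and 102307 ± 37886 for rapamycin day 7 (SD, n = 3 each). In this order, each pair of neighbouring groups differed by less than the larger of their standard deviations. Vehicle and rapamycin of the same day are not neighbours in it. Their means differed by more than either standard deviation at day 21 and by less than the larger at day 7.

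miR-425-5p had the same order of group means. Vehicle replicates 1 to 3 stood at 3737, 9820 and 9248 CPM at day 7 and at 10599, 10111 and 8065 CPM at day 21. Rapamycin replicates 1 to 3 stood at 6062, 4440 and 6434 CPM at day 7 and at 5899, 5243 and 6262 CPM at day 21. As for miR-191a-5p, the groups overlapped at day 7 through vehicle replicate 1 alone, and at day 21 all rapamycin libraries lay below all vehicle libraries. The means were 9592 ± 1344 CPM for vehicle day 21, 7602 ± 3359 for vehicle day 7, 5801 ± 517 for rapamycin day 21 and 5645 ± 1060 for rapamycin day 7 (SD, n = 3 each). Here too neighbouring groups differed by less than the larger of their standard deviations. Between treatments, the means again differed by more than either standard deviation at day 21 and by less than the larger at day 7. Of the 74 miRs that had 10 counts or more throughout, 9 (12.2%) were likewise without overlap and below vehicle at day 21, and 1 (1.35%) was so at day 7, which was neither member. In the 10 listed libraries with their own scaling, both members were without overlap and below vehicle at day 7, as were 21 of the 74 miRs (28.4%). At day 21 this held for miR-425-5p but not for miR-191a-5p, with 4 of 74 miRs (5.41%) as the background.

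**Figure D1:**
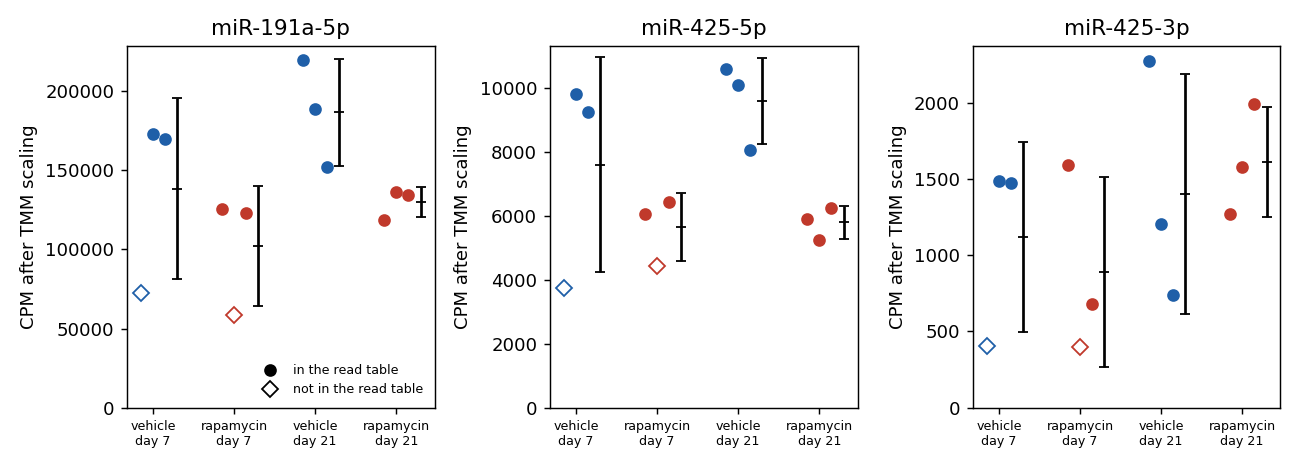
Level of miR-191a-5p, miR-425-5p and miR-425-3p in each library, in CPM after TMM scaling over the 12 libraries, by group (blue, vehicle; red, rapamycin). Filled circles are libraries listed in the study's read table, open diamonds the 2 that are not, and black bars the group mean ± SD (n = 3). At day 21 all 3 rapamycin libraries lie below all 3 vehicle libraries for both 5p miRs, but not for miR-425-3p.

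The question put by the study was whether rapamycin changes the miRs carried by serum EVs after tendon injury. In edgeR's quasi-likelihood test over the 12 libraries, no member passed an adjusted p of 0.05 at either timepoint. At day 7 the log2 fold change with rapamycin was -0.43 (standard error 0.46) for miR-191a-5p and -0.43 (standard error 0.50) for miR-425-5p, both with an adjusted p of 1. At day 21 it was -0.52 (standard error 0.46) and -0.73 (standard error 0.50), again with an adjusted p of 1. With timepoint as a blocking factor the log2 fold change was -0.48 (standard error 0.29) for miR-191a-5p and -0.58 (standard error 0.34) for miR-425-5p, both with an adjusted p of 0.907. The background was 0% of 426 miRs called in each of these comparisons by edgeR. Without adjustment, 8 miRs had a p under 0.05 at day 7, 12 at day 21 and 15 with the blocking factor. DESeq2 and limma-voom called 0 miRs as well. With independent filtering in edgeR, miR-191a-5p at day 7 had an adjusted p of 0.994 over the 12 libraries and 0.373 over the 10 listed ones. With such filtering the study called miR-191a-5p lower with rapamycin at day 7. A difference of the same direction and similar size was found here, at -0.43 over the 12 libraries and -0.42 over the 10 listed ones. The study's call by adjusted p was not reproduced. The study used an earlier version of edgeR, and the part of the version in this was not tested.

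The same differences had smaller errors in the 10 listed libraries. With timepoint as a blocking factor the log2 fold change was -0.39 (standard error 0.16, unadjusted p = 0.0133, adjusted p = 0.396) for miR-191a-5p and -0.57 (standard error 0.27, unadjusted p = 0.0343, adjusted p = 0.597) for miR-425-5p. At day 7 it was -0.42 (standard error 0.28) and -0.56 (standard error 0.43), both with an adjusted p of 0.979 from edgeR. At day 21 it was -0.37 (standard error 0.23) and -0.57 (standard error 0.36), both with an adjusted p of 1. In these libraries 2 of 365 miRs (0.548%) were called at day 7, 0% at day 21 (15 miRs at an unadjusted p under 0.05) and 0.548% with the blocking factor, and no member was among them. Were the levels lower, the blood could hold fewer vesicles from a given cell type or less of a miR per vesicle. These cannot be told apart in bulk serum, and neither was tested.

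Neither the interval between injury and sampling nor its combination with treatment moved the members past the test. From day 7 to day 21 the log2 change of miR-191a-5p was 0.43 ± 0.46 (standard error) with vehicle and 0.34 ± 0.46 with rapamycin, with edgeR's adjusted p at 0.848 and 0.852. For miR-425-5p it was 0.34 ± 0.49 and 0.041 ± 0.50, with an adjusted p of 0.857 and 1. The background was 0.469% of 426 miRs called with vehicle and 1.17% with rapamycin, all of them lower at day 21. Without the unlisted libraries the change was 0.13 with vehicle and 0.18 with rapamycin for miR-191a-5p and 0.017 and 0.0058 for miR-425-5p, each with an adjusted p of 1, where 0.274% and 0.548% of 365 miRs were called. The difference between the treatment effects at day 21 and day 7 was -0.089 on the log2 scale (standard error 0.65) for miR-191a-5p and -0.30 (standard error 0.70) for miR-425-5p, both with an adjusted p of 1.00 from edgeR and 0% of 426 miRs called (14 at an unadjusted p under 0.05). Without the unlisted libraries it was 0.044 and -0.012, where 0.274% of miRs were called.

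miR-425-3p, the other arm of the miR-425 hairpin, did not show the same direction at both timepoints. It stood at 402, 1489 and 1471 CPM in vehicle replicates 1 to 3 at day 7 and at 2271, 1204 and 737 CPM at day 21. With rapamycin it stood at 1592, 401 and 682 CPM at day 7 and at 1269, 1581 and 1989 CPM at day 21, so the treatments overlapped at both timepoints. The log2 fold change with rapamycin was -0.33 (standard error 0.63) at day 7 and 0.20 (standard error 0.63) at day 21, both with an adjusted p of 1 from edgeR. With timepoint as a blocking factor it was -0.063 (standard error 0.44, adjusted p = 0.994), and in the 10 listed libraries 0.085 (standard error 0.40, adjusted p = 0.948).

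**Figure D2:**
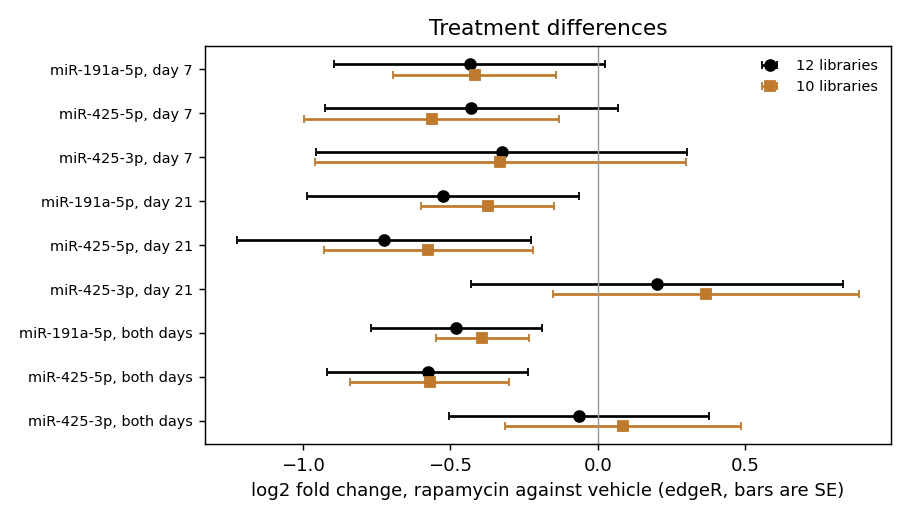
Log2 fold change of rapamycin against vehicle for the 5p members and miR-425-3p at day 7, at day 21 and over both days with timepoint as a blocking factor. Points are edgeR estimates and bars 1 standard error, in black for all 12 libraries and in orange for the 10 listed ones. Both 5p miRs lie below 0 in every comparison shown, and miR-425-3p lies on both sides of 0.

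Whether the members move together was examined through the number of miR-191a-5p counts per miR-425-5p count, which does not depend on how libraries are scaled. Counts of miR-191a-5p ran from 1872 to 8632 and those of miR-425-5p from 93 to 446, a range of 4.61-fold and 4.80-fold. The ratio between them stayed within 13.2 and 25.9, with a median of 19.2 and a mean of 19.5 ± 2.93 (SD, n = 12). In vehicle replicates 1 to 3 it was 19.4, 17.6 and 18.4 at day 7 and 20.7, 18.6 and 18.8 at day 21. In rapamycin replicates 1 to 3 it was 20.7, 13.2 and 19.1 at day 7 and 20.1, 25.9 and 21.5 at day 21. The lowest ratio, 13.2, was in a library that the read table does not list, and its 95% exact binomial interval of 11.7 to 14.9 did not reach the next lowest ratio of 17.6. The highest, 25.9 (95% interval 21.7 to 31.2), was in rapamycin day 21 replicate 2. The ratio of the other unlisted library, 19.4, lay near the median. Since the reads carry no molecular identifiers, these intervals cover counting error only.

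**Figure D3:**
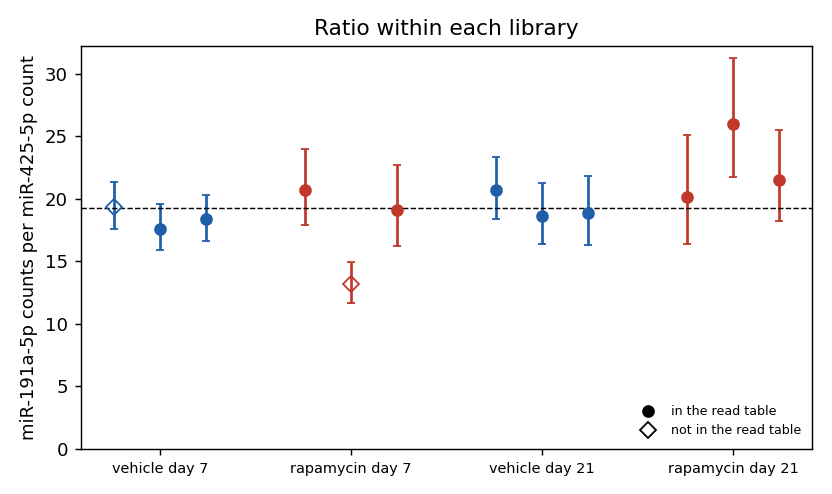
Counts of miR-191a-5p per count of miR-425-5p in each library, by group (blue, vehicle; red, rapamycin), with 95% exact binomial intervals for counting error. The dashed line is the median of 19.2, filled circles are listed libraries and open diamonds are the 2 that are not. Rapamycin day 7 replicate 2 lies lowest at 13.2 and rapamycin day 21 replicate 2 highest at 25.9.

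On the log2 scale the ratio had an SD of 0.22 over the 12 libraries and 0.16 over the 10 listed ones, where counting error alone gives 0.10 and 0.11. Among the 73 other miRs that reached 10 counts throughout, miR-425-5p kept the steadiest ratio to miR-191a-5p, ranking 1 of 73 in both sets of libraries. The median SD of the log2 ratio over these miRs was 0.66 in the 12 libraries and 0.54 in the 10. In the 12 libraries the next steadiest were miR-652-3p (SD 0.23), miR-103-3p, a miR linked to lipid and insulin metabolism (SD 0.27), and miR-872-5p (SD 0.30). The difference between miR-425-5p and miR-652-3p is too small to order them. Seen from miR-425-5p, the steadiest ratio over the 12 libraries was that to miR-872-5p (SD 0.22), with miR-191a-5p next at an SD of 0.23. These ranks are descriptions across miRs, which share libraries and depth.

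**Figure D4:**
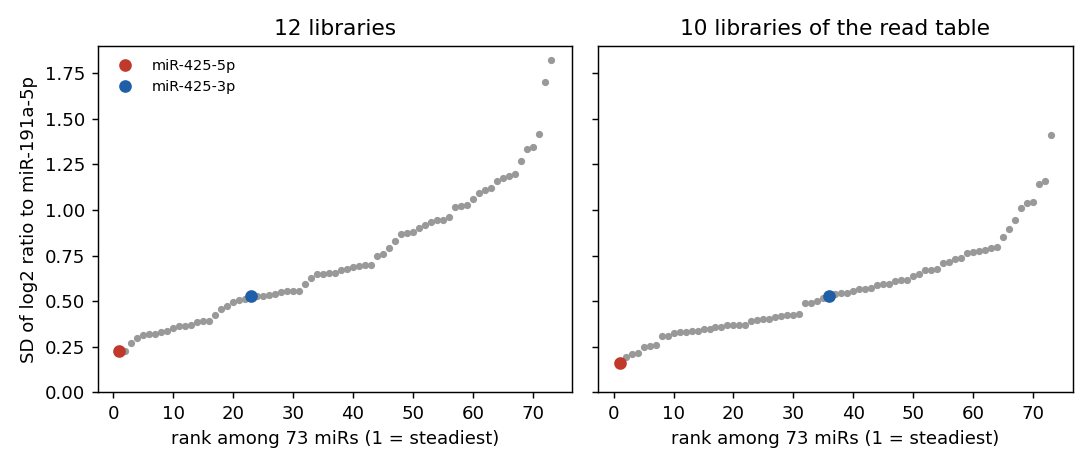
SD across libraries of the log2 ratio of each of 73 miRs to miR-191a-5p, ordered from the steadiest, in all 12 libraries (left) and in the 10 listed ones (right). Each grey point is a miR with 10 counts or more throughout. miR-425-5p (red) ranks 1 in both panels and miR-425-3p (blue) ranks 23 and 36.

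Levels of miR-191a-5p and miR-425-5p, as log2 CPM, correlated across the 12 libraries with Pearson's r = 0.911 (permutation p = 6.00e-05, adjusted p = 0.000180 over 3 pairs) and Spearman's rho = 0.902 (permutation p = 0.000220, adjusted p = 0.000660). The libraries farthest from the median of miR-191a-5p were the 2 that the read table does not list. Without them r was 0.917 (permutation p = 0.000360, n = 10) with the scaling of the 12 libraries and 0.887 (permutation p = 0.000780, adjusted p = 0.00234, rho = 0.903) with that of the 10. After the group means were taken away, so that treatment and timepoint could not contribute, r was 0.912 over the 12 libraries and 0.769 over the 10 listed ones (permutation p = 1e-05, the smallest that 100000 resamples give, and 0.00864). Resampling treats these deviations as independent, but those of a group are tied by its mean, so these p-values are too small. By r with the group means taken away, miR-425-5p ranked 10 of 73 miRs in the 12 libraries and 5 of 73 in the 10. miR-103-3p ranked 1 (r = 0.991) and 2 (r = 0.901) in these sets, and in the 10 libraries miR-181c-5p (r = 0.902), miR-425-3p (r = 0.794) and miR-17-5p (r = 0.789) also stood above miR-425-5p. With miR-191a-5p as the reference, miR-425-5p had the highest r of the 73 miRs in the 10 listed libraries. Over all 12 libraries miR-103-3p (r = 0.944) and miR-652-3p (r = 0.935) were higher, and miR-128-3p (r = 0.898) and miR-17-5p (r = 0.894) followed. The median r over the 73 miRs was 0.380 in the 12 libraries and -0.064 in the 10.

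**Figure D5:**
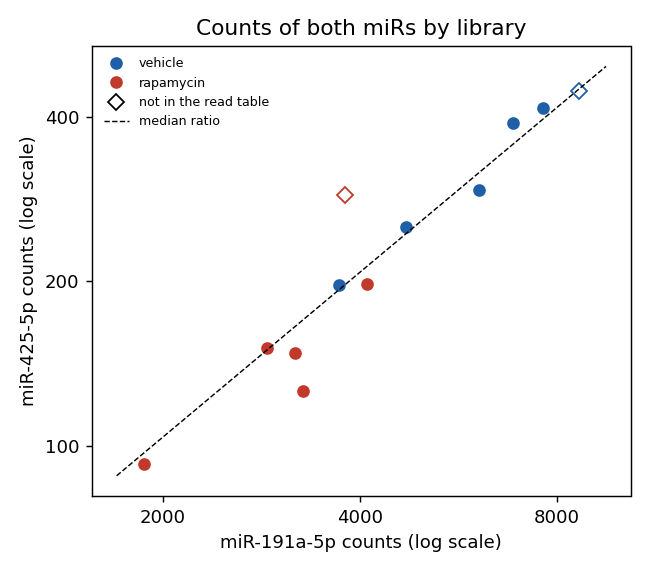
Counts of miR-425-5p against counts of miR-191a-5p in each of the 12 libraries, both on log axes (blue, vehicle; red, rapamycin; open diamonds, not listed in the read table). The dashed line is the median ratio of 19.2 counts of miR-191a-5p per count of miR-425-5p. The libraries follow the line from 1872 to 8632 counts of miR-191a-5p, with rapamycin day 7 replicate 2 above it.

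The ratio between the arms of miR-425 varied more than that between the 5p members, a difference that was not tested. The number of miR-425-5p counts per miR-425-3p count ran from 3.15 to 11.1, with an SD of 0.66 on the log2 scale where counting error alone gives 0.27. miR-425-3p and miR-425-5p correlated with r = 0.611 over the 12 libraries (permutation p = 0.0356, adjusted p = 0.0356, rho = 0.413 with permutation p = 0.184) and r = 0.115 over the 10 listed ones (permutation p = 0.745). Leaving out the libraries farthest from the median of miR-425-5p, replicates 1 of vehicle at both timepoints, brought r over the rest to 0.324 (permutation p = 0.365). With miR-191a-5p, r was 0.793 (permutation p = 0.00237, adjusted p = 0.00355) over the 12 libraries and rho 0.566 (permutation p = 0.0590). Without the libraries farthest from the median, which for this pair were the 2 unlisted ones, r fell to 0.354 (permutation p = 0.312), so the correlation of levels rests on those libraries. In the 10 with their own scaling r was 0.409 (permutation p = 0.241). With the group means taken away, r between miR-425-3p and miR-191a-5p was 0.888 over the 12 libraries (permutation p = 6.00e-05) and 0.794 over the 10 (permutation p = 0.00731). Within groups, r thus stayed positive without the unlisted libraries. Between miR-425-3p and miR-425-5p it was 0.810 (permutation p = 0.000680) and 0.516 (permutation p = 0.130). The p-values for deviations from group means are too small, as above.

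The ratio of miR-425-5p to miR-191a-5p was compared between treatments within timepoints. Over the 12 libraries the mean log2 ratio was -4.30 ± 0.32 with rapamycin and -4.24 ± 0.079 with vehicle (SD, n = 6 each), a difference of -0.059, and a two-sided exact permutation test gave p = 0.63 (0.63 after adjustment over 4 tests). In the 10 listed libraries the means were -4.41 ± 0.17 and -4.23 ± 0.086 (SD, n = 5 each), a difference of -0.18 (exact permutation test, p = 0.0333, adjusted p = 0.0444), where 0.0167 is the smallest p that 120 arrangements allow. Leaving out a further library in turn, the exact permutation p stayed under 0.05 without vehicle day 21 replicate 1 (0.0333) or rapamycin day 21 replicate 1 (0.0167), and it was from 0.05 to 0.0833 without any of the other 8. The difference was smallest, at -0.12, without rapamycin day 21 replicate 2. Between timepoints the ratio was lower at day 21 by a log2 difference of -0.22 over the 12 libraries (exact permutation test, p = 0.06, adjusted p = 0.133) and -0.14 over the 10 (p = 0.12, adjusted p = 0.12).

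Set against the spike-in calibrators, synthetic RNAs added in the same amount to each RNA sample, both members were lower with rapamycin in the 10 listed libraries. The calibrators were added at library preparation, so they do not cover losses in EV isolation or RNA extraction. miR-191a-5p stood at 255 and 234 counts per 1000 calibrator counts in the listed vehicle libraries at day 7 and at 285, 205 and 142 in vehicle replicates 1 to 3 at day 21. It stood at 189 and 132 in the listed rapamycin libraries at day 7 and at 78.6, 158 and 130 in rapamycin replicates 1 to 3 at day 21, so the treatments overlapped only at day 21, where 1 rapamycin library lay above 1 vehicle library. The difference with rapamycin was -0.72 on the log2 scale, for which a two-sided exact permutation test gave p = 0.0333 (0.0444 after adjustment over 4 tests). For miR-425-5p it was -0.91 (exact permutation test, p = 0.0167, adjusted p = 0.0444), and 0.0167 is the smallest p possible. The sum of all miR counts per calibrator count differed by -0.40 in the same libraries. The permutation test was not run on other miRs, so it does not show whether the members stand out. In edgeR with calibrator counts as library size, the blocking factor gave 2 calls among 365 miRs in these libraries, neither a member. Leaving out a further library kept the permutation p under 0.05 in 10 of 10 tests for miR-425-5p and in 3 of 10 for miR-191a-5p, those without rapamycin day 7 replicate 1, vehicle day 21 replicate 3 or rapamycin day 21 replicate 2.

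The unlisted libraries changed this comparison. They held 1149 (vehicle) and 409 (rapamycin) counts of miR-191a-5p per 1000 calibrator counts, and 59.4 and 31.0 of miR-425-5p. All 4 values lay above those of every listed library, in which miR-425-5p ran from 3.91 to 14.5 counts per 1000 calibrator counts. Over all 12 libraries the difference with rapamycin was -0.85 for miR-191a-5p (exact permutation test, p = 0.09, adjusted p = 0.133) and -0.91 for miR-425-5p (exact permutation test, p = 0.1, adjusted p = 0.133), where 0.005 is the smallest p that 400 arrangements allow. The sum of all miR counts per calibrator count then differed by -0.53.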

How the data were processed

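Small RNA libraries from serum EVs of 12 rats (3 per treatment and timepoint, day 7 or day 21) were analysed as the authors deposited them, as raw read counts per mature miR and spike-in sequence. Per the study's methods, EVs were isolated by size exclusion, reads were trimmed with cutadapt 3.3, mapped with Bowtie 1.3.0 and miRDeep2 to the rat genome mRatBN7.2 and then to rat miRs of miRBase, with mismatches allowed. The 10 spike-in sequences (7 calibrators) were left out of miR totals, and 0 columns of the table belonged to no sample. Reads carry no molecular identifiers.

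Counts of 426 miRs were fitted with edgeR 4.0.16 (quasi-likelihood, TMM) in R 4.3.3, with a mean for each group or with timepoint as a blocking factor. All miRs with a count were tested, p was adjusted by Benjamini-Hochberg over all of them, and the threshold was 0.05. Standard errors are the log2 fold change divided by the root of F. The study's independent filtering, other scalings, filters, DESeq2, limma-voom, a replicate block and leaving out libraries were alternatives, of which 5 were chosen after seeing the data (those combining the 10 listed libraries with another choice). Single values were compared by exact permutation within timepoint (or treatment), with 0.5 added to counts in ratios. Correlations used log2 CPM with a prior count of 2. Scripts were tested on simulated data.

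Sequences came from a RefSeq table on GRCr8, in which 385 of 426 miRs and all 3 members matched by name. Named miRs were the members, the other arms, the 10 most abundant miRs where a result turned on them, the miRs most like a member, serum reference miRs and markers of blood cells, liver and muscle. The members and lists were chosen with earlier results of these data known. Each library is 1 animal. Coordinates on GRCr8 are not those of the authors' build.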

Additional observations from a re-analysis of the deposited data

Results flagged for a closer look

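Among 14 sets of 6 libraries (7 measures in each treatment, both timepoints together), 5 held a library far from the others by Dixon's test, and chance flags about 1 in 20. All 5 were libraries that the study's read table does not list. The log2 CPM of miR-191a-5p was 15.84 in rapamycin day 7 replicate 2, against 16.86 to 17.05 in the other rapamycin libraries. It was 16.14 in vehicle day 7 replicate 1, against 17.21 to 17.74 in the other vehicle libraries. In that same vehicle library miR-425-5p stood at a log2 CPM of 11.89, against 12.99 to 13.38 in the others. Relative to the calibrators both members were instead highest there. The log2 of counts per calibrator count was 0.20 for miR-191a-5p, with the other vehicle libraries from -2.82 to -1.81, and -4.07 for miR-425-5p, with the others from -7.06 to -6.11. The ratio between the members was not far from the others by this test in any of the sets.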

How the results depend on the processing

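The treatment differences of miR-191a-5p and miR-425-5p stayed negative and uncalled, for either timepoint alone and for both together, under each of 13 other settings and each of 12 fits without 1 library. Over these settings the log2 fold change with timepoint as the blocking factor ran from -0.98 to -0.32 for miR-191a-5p (adjusted p from 0.163 to 1.00) and from -0.95 to -0.41 for miR-425-5p (adjusted p from 0.270 to 1.00). With calibrator counts as library size the median of all miRs itself shifted by -0.76 in that comparison over the 12 libraries and by -0.27 over the 10. Over the 12 libraries the number of miRs called with the blocking factor was 0, and 2 of 26 tested with independent filtering. At day 7 it was 0, and 1 of 107 tested with that filtering. In the 10 libraries it was 2 with the blocking factor and 5 with independent filtering, and 2 and 3 at day 7. Between timepoints with vehicle over the 12 libraries it was 2, and 41 with calibrator counts as library size. With the replicate number as a block the log2 fold change was -0.48 for miR-191a-5p and -0.57 for miR-425-5p, and no call on a member changed. Same-numbered libraries of a timepoint deviated together with r from -0.78 to 0.31 in 6 pairs, so no pairing by number was seen. With 3 libraries behind each group mean, these values cannot exclude one.

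Several differences changed sign that lay within 1 standard error of 0 in the edgeR fit with TMM over the 12 libraries. The cause was not tested. The interaction for miR-191a-5p became 0.38 with calibrator counts as library size, 0.057 with filterByExpr, 0.044 in the 10 listed libraries (also with independent filtering) and 0.040 there with the replicate block. It ran from -0.28 to 0.32 without 1 library, and that of miR-425-5p from -0.52 to 0.12. With calibrator counts as library size the change from day 7 to day 21 was -1.37 (vehicle) and -0.99 (rapamycin) for miR-191a-5p and -1.42 and -1.55 for miR-425-5p, and in the 10 libraries -0.22, -0.39, -0.34 and -0.59. In these calibrator fits over the 12 libraries the median of all miRs itself changed by -2.66 (vehicle) and -1.80 (rapamycin). In the 10 it changed by -0.35 and -0.30. With rapamycin the change of miR-425-5p between timepoints was also -0.079 without TMM and -0.080 with at least 10 counts in every library. It ran from -0.0020 to 0.17 without 1 library. With the blocking factor miR-425-3p became 0.11 without TMM, 0.080 with DESeq2's size factors, 0.047 with at least 10 counts in every library, 0.081 with DESeq2, 0.030 with limma-voom, 0.085 in the 10 libraries and 0.073 there with the replicate block, and at day 21 it was -0.11 and -0.10 with calibrator counts, over 12 and 10 libraries. Without 1 library miR-425-3p ran from -0.23 to 0.21 with the blocking factor and from -0.11 to 0.89 at day 21.

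In the 10 listed libraries the ratio between members (-0.18) and the calibrator-scaled differences (-0.72 and -0.91) passed an unadjusted p of 0.05, as they did in the 12 without rapamycin day 7 replicate 2. Without 1 of the 12 libraries they ran from -0.16 to 0.0051, from -1.05 to -0.51 and from -1.21 to -0.61, and the ratio between timepoints from -0.26 to -0.11. The value of 0.0051 was without rapamycin day 21 replicate 2. The correlation of the 5p members ran from 0.769 to 0.981 over all settings and from 0.881 to 0.948 without 1 library. The depth limits miR-191b and miR-191a-3p, which cannot be compared between groups here.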

Other observations

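miR-191a-5p and miR-425-5p belong to a list of miRs often used as references in serum and plasma, and the other 7 on the list were miR-103-3p, miR-93-5p, miR-16-5p, miR-423-5p, miR-423-3p, miR-484 and miR-24-3p. All 9 were counted in every library. In the 10 listed libraries the SD of log2 CPM was lowest for miR-103-3p at 0.14, which ranked 3 of 74 miRs, and highest for miR-484 at 0.84, which ranked 68. miR-191a-5p ranked 16 with an SD of 0.27 and miR-425-5p ranked 20 with 0.33, where the median of the 74 miRs was 0.42. Over all 12 libraries miR-191a-5p ranked 34 (SD 0.55) and miR-425-5p 23 (SD 0.49), with a median of 0.60, while miR-103-3p ranked 6 (SD 0.32). None of the 9 was called by edgeR with timepoint as a blocking factor in either set of libraries. In the 10 listed libraries the members had the most negative log2 fold changes of the list, -0.39 and -0.57, against -0.050 for miR-103-3p, 0.11 for miR-16-5p and 0.16 for miR-93-5p.

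Markers of other sources were summed and set against the total of miR counts. The 5 red cell miRs ran from 7.61% to 19.4% with rapamycin (median 14.8%) and from 3.37% to 17.2% with vehicle (median 11.2%). The 6 leukocyte and platelet miRs (miR-223-3p, miR-142-3p, miR-142-5p, miR-150-5p, miR-342-3p and miR-126a-3p) ran from 2.42% to 5.54% and from 2.39% to 5.49%. The 3 liver miRs (miR-122-5p, miR-192-5p and miR-194-5p) ran from 0% to 1.09% and from 0.0279% to 1.34%, and the 6 muscle miRs from 0% to 0.198% and from 0.00348% to 1.11%. The treatments overlapped for each list, and the part of these shares in the members' levels was not tested.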
